A study of Mus musculus with 2 samples.

Results

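Small Cajal body-specific RNAs (scaRNAs) and the genes in whose introns they lie were compared between the RNAs co-purified with telomeres and those co-purified with a control protein. The members were 5 scaRNAs (Scarna6, Gm25395, Scarna10, Scarna13 and Scarna2) and 3 host genes (Atg16l1, Ncapd2 and Snhg10), so 8 gene symbols in all. They were found by gene symbol after the files of both libraries were joined on the Ensembl transcript ID, and the reads of all transcripts of a symbol were summed. Of the 8 symbols, 7 had rows, with 13 transcripts among the 48876 transcripts and 24117 gene symbols listed. No row carried the symbol Snhg10 or a RefSeq synonym of it, so the host gene of Scarna13 was not analysed here. RNA was obtained by enChIP-RNA-Seq, in which a tagged DNA-binding protein is crosslinked to chromatin and immunoprecipitated, and the RNA that comes down with it is sequenced. Both libraries came from derivatives of Ba/F3, a mouse hematopoietic cell line (strain C3H by its labels), that stably express a protein with a 3xFLAG tag and a nuclear localization signal. In 3xFN-Tel-TAL the protein is a transcription activator-like protein that recognizes telomeres, and in 3xFNLDD, the negative control, it is the bacterial protein LexA. The anti-FLAG M2 antibody was used for both immunoprecipitations, and each library was made from 60 ng of RNA. The libraries are called control and Tel-TAL below. Each condition had 1 library, so no replicate test exists, and the difference between 2 libraries cannot be told apart from one between conditions. RNA from before the immunoprecipitation was not analysed here, so recovery of an RNA cannot be told apart from its level in the cells. The 95% intervals given with the values cover counting error only.

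Guide RNAs of this family reside in the Cajal body, a compartment of the nucleus, where they direct 2′-O-methylation (C/D type) or pseudouridylation (H/ACA type) of spliceosomal snRNAs, and some carry both kinds of domain. Most vertebrate scaRNAs are cut out of the introns of longer transcripts after splicing, so a scaRNA and its host messenger RNA start from one precursor but end as separate RNAs. Dyskerin and other H/ACA proteins bind the H/ACA domains, and the protein WRAP53, also called TCAB1, recognizes them and holds them in Cajal bodies. The telomerase RNA, an H/ACA RNA as well, binds the same proteins.

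The sequences of the 5 scaRNAs are shown because the family is defined by short motifs at their ends, and because reads can be assigned to one scaRNA only where its sequence differs from the others. They were read from the genome NCBIM37 by transcript ID, 5′ to 3′ on the strand of the RNA, and the capitals mark TGATGA (the box C letters), CTGA within or reaching into the last 20 bases (the box D letters) and ACA ending 3 bases before the 3′ end (the H/ACA tail). Scarna6, Gm25395 and Scarna13 are printed whole, Scarna10 from base 1 to base 300 of 325, and Scarna2 from base 295 to base 414, its last base.
Scarna6: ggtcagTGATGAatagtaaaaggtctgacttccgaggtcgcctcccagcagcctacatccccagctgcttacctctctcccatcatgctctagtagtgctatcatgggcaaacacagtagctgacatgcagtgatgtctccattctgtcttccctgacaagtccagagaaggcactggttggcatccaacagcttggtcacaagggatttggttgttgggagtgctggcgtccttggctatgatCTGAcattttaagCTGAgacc
Gm25395: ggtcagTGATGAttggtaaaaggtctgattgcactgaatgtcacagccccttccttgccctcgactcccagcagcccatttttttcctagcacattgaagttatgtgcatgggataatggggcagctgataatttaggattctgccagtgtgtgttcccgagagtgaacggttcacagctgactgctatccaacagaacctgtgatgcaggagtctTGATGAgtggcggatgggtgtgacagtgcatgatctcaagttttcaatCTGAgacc
Scarna10: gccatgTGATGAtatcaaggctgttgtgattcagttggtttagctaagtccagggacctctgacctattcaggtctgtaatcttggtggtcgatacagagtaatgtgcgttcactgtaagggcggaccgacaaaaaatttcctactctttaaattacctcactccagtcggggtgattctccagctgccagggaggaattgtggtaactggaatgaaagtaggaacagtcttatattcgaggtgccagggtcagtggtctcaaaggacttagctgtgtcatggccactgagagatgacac
Scarna13: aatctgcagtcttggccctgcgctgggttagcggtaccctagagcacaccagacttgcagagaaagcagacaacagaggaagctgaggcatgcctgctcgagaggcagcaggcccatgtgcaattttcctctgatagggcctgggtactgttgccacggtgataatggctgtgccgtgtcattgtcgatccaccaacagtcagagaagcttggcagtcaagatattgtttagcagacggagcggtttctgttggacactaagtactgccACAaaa
Scarna2: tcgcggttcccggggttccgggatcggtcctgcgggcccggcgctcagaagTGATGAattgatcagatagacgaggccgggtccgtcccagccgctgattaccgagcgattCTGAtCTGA

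TGATGA began at base 7 in Scarna6, Gm25395 and Scarna10, and CTGA began at base 258 of 265 in Scarna6, at base 265 of 272 in Gm25395 and at base 317 of 325 in Scarna10. Scarna13 had no TGATGA and ended in the H/ACA tail. Scarna2 differed from the others, with a single TGATGA at base 346 of 414 and CTGA as its last letters. Among 173 other annotated single-exon small RNAs of 250 to 450 nt, 1.73% had TGATGA starting in the first 20 bases, 8.09% had CTGA reaching the last 20 bases and 1.16% had the H/ACA tail. These letters were searched on the strand of the RNA, where a CTGA can overlap a TGATGA. The telomere repeat unit, searched as TTAGGG or CCCTAA on the same strand, was in none of the 5 scaRNAs and in 8.09% of the 173 small RNAs. Scarna6 and Gm25395, which the GENCODE annotation names SCARNA6 as well, were identical in 63.0% of the columns of a global alignment, and their longest shared run was 13 bases. The other 9 pairs were identical in 42.4% to 52.8% of the columns. No second copy with at least 90% identity over 50% of the length was found in NCBIM37 for any of the 5.

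Scarna6 and Gm25395 lie in the same host gene, Atg16l1, which encodes a protein needed to attach LC3 to the membranes of forming autophagosomes. Scarna6 (ENSMUST00000158656, chromosome 1, 89681131 to 89681395, forward strand, 265 nt) lies in intron 12 of 17 of the Atg16l1 transcript ENSMUST00000027512, 2813 nt after the upstream exon and 1055 nt before the downstream exon. Gm25395 (ENSMUST00000157343, chromosome 1, 89673513 to 89673784, forward strand, 272 nt) lies in intron 9 of the same transcript, 1078 nt after the upstream exon. Scarna10 (ENSMUST00000158992, chromosome 6, 125136377 to 125136701, reverse strand, 325 nt) fills most of intron 4 of 31 of Ncapd2, an intron of 472 nt, and the gene encodes a subunit of the chromosome-compacting complex condensin I. Scarna13 (ENSMUST00000158164, chromosome 12, 106269285 to 106269559, reverse strand, 275 nt) and Scarna2 (ENSMUST00000157560, chromosome 3, 108357256 to 108357669, reverse strand, 414 nt) lie within no listed gene with an annotated position. Coordinates are those of NCBIM37. The number of host transcripts with an exon over a scaRNA was 0, so host and scaRNA reads were counted over separate bases of the locus. Reads of unspliced host RNA over a scaRNA cannot be told apart from reads of the scaRNA itself.

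**Figure D1:**
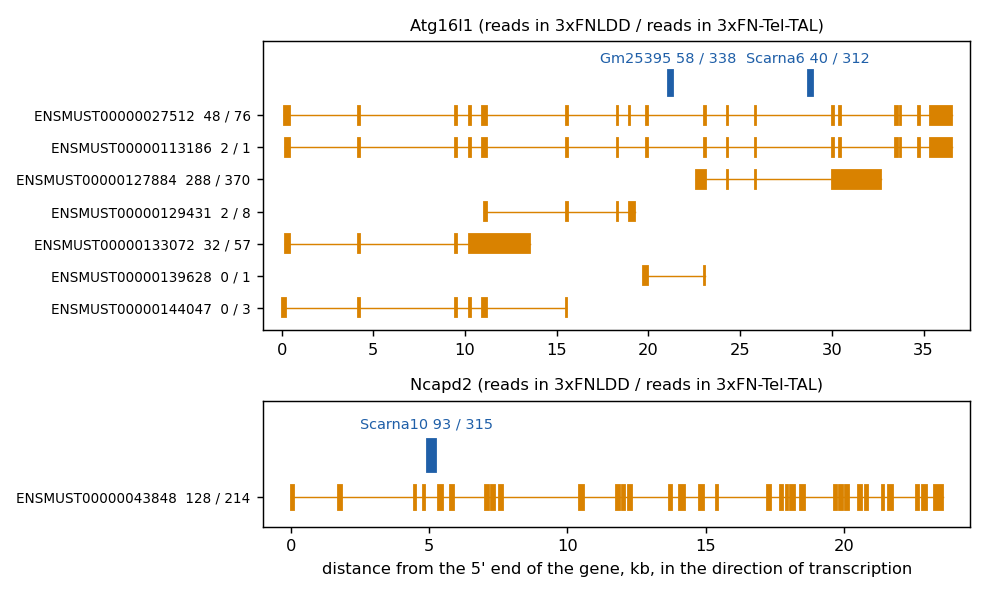
Maps of Atg16l1 (top) and Ncapd2 (bottom), with the distance from the 5′ end of the gene in kb on the horizontal axis, annotated exons of each listed transcript in orange, scaRNAs in blue, and reads in 3xFNLDD and in Tel-TAL after each name. Gm25395 (58 and 338 reads), Scarna6 (40 and 312 reads) and Scarna10 (93 and 315 reads) fall between exons of their hosts.

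The control library held 7206183 reads assigned to transcripts and the Tel-TAL library held 9774844. A set of 11 transcripts, each over 1% of at least 1 library, held 84.8% of the reads in the control and 81.1% in Tel-TAL. The levels of all other RNAs, given as RPM (reads scaled to the total of the library), therefore depend on these few. A count of 0 allows a level of up to about 3 reads, which is 0.416 RPM in the control and 0.307 RPM in Tel-TAL. Of 12 hematopoietic markers, 11 had rows, and together they had 1772 and 3238 reads, with most reads over both libraries for the cytokine receptor subunits Csf2rb (583 and 1052 reads) and Csf2rb2 (751 and 849 reads). Kit, Cd79a and Cd79b, also on that list, had between 0 and 4 reads in each library. Of 12 markers of other cell types, 10 had rows, with 99 and 83 reads in all. Pecam1 (39 and 67 reads), the only 1 with at least 20 reads over both libraries, had a log2 ratio of 0.34 (-0.25 to 0.95). Without Pecam1 the other 9 had 60 and 16 reads, a log2 ratio of -2.35 (-3.24 to -1.53). All 9 had fewer RPM in Tel-TAL, each on few reads, with Krt14, Myh6 and Cdh5 each at 8 and 0 reads and Krt5 at 5 and 0 reads. The part of this difference in the values of the scaRNAs was not tested.

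All 5 scaRNAs had more RPM in Tel-TAL than in the control, from 1.50 times for Scarna2 to 5.75 times for Scarna6. Scarna6, a guide with both C/D and H/ACA domains, had 40 reads (5.55 RPM) in the control and 312 (31.9 RPM) in Tel-TAL, and its log2 ratio was 2.52, with a 95% interval of 2.05 to 3.04. Gm25395 had 58 reads (8.05 RPM) and 338 (34.6 RPM), a log2 ratio of 2.10 (1.70 to 2.53). These neighbors in Atg16l1 were the lowest of the 5 in the control library, and each had a ratio above 4. Scarna10, likewise a guide with both kinds of domain, had 93 reads (12.9 RPM) and 315 (32.2 RPM), a log2 ratio of 1.32 (0.98 to 1.67). Scarna13, an H/ACA guide, had 82 reads (11.4 RPM) and 262 (26.8 RPM), a log2 ratio of 1.24 (0.87 to 1.61). Scarna2, a C/D guide for U2 snRNA, was the most abundant of the 5 in both libraries, with 355 reads (49.3 RPM) and 724 (74.1 RPM), and had the lowest log2 ratio, 0.59 (0.40 to 0.78). In Tel-TAL, Scarna6, Gm25395, Scarna10 and Scarna13 were within a narrow range of 26.8 to 34.6 RPM, whereas in the control they ranged from 5.55 to 12.9 RPM.

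**Figure D2:**
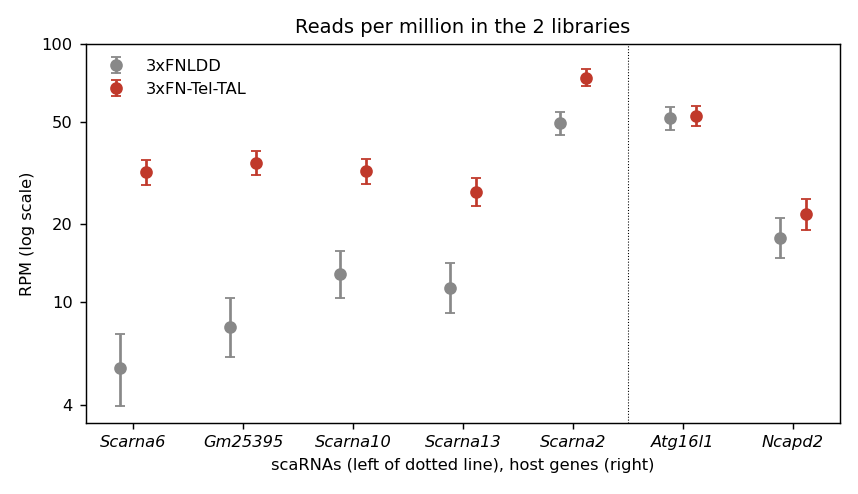
RPM on a log scale of the 5 scaRNAs and the 2 host genes with rows, in 3xFNLDD (gray) and 3xFN-Tel-TAL (red), with exact 95% Poisson intervals as bars and 1 library per condition. The intervals of the 2 libraries are apart for all 5 scaRNAs and overlap for Atg16l1 and Ncapd2.

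By the ratio of RPM, 5 of 5 scaRNAs and 0 of 2 host genes were above 1.4, the threshold of the study. The study applied it to the ratio of read counts, by which Ncapd2 (128 and 214 reads) would be above it too. Atg16l1 (372 and 516 reads) would not be. The counts below use RPM. Among the 5933 gene symbols with 100 reads or more over both libraries, 2539 (42.8%) were above 1.4-fold and 346 (5.83%) were below the inverse of 1.4, with a median log2 ratio of 0.41. A ratio above 1.4 was therefore common. The study had selected Scarna6, Scarna10, Scarna13 and Scarna2 by this threshold in these same libraries. Gm25395 was chosen as a member with earlier results of these data known. The count of 5 and the ranks below are therefore not independent evidence of the direction. The position within all symbols separated the scaRNAs further. Scarna6 ranked 3 of 5933 by log2 ratio, Gm25395 ranked 18, Scarna10 ranked 288 and Scarna13 ranked 364, whereas Scarna2 ranked 2015. For Scarna2 the lower bound of the interval was 1.32-fold, below the threshold, and with TMM (trimmed mean of M values) scaling, which lowers each log2 ratio by 0.33, its log2 ratio was 0.26 and 4 of the 5 remained above 1.4-fold. Symbols grouped by short length alone were not higher. The 155 others with annotated transcripts of up to 500 nt had a median log2 ratio of 0.36, and the 5539 with longer ones had 0.42. Small nucleolar RNAs (snoRNAs) within listed genes were higher, however. The 47 of these not annotated as scaRNAs, described below and taken with a lower read minimum, had a median log2 ratio of 0.91. The median of their hosts was 0.37.

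**Figure D3:**
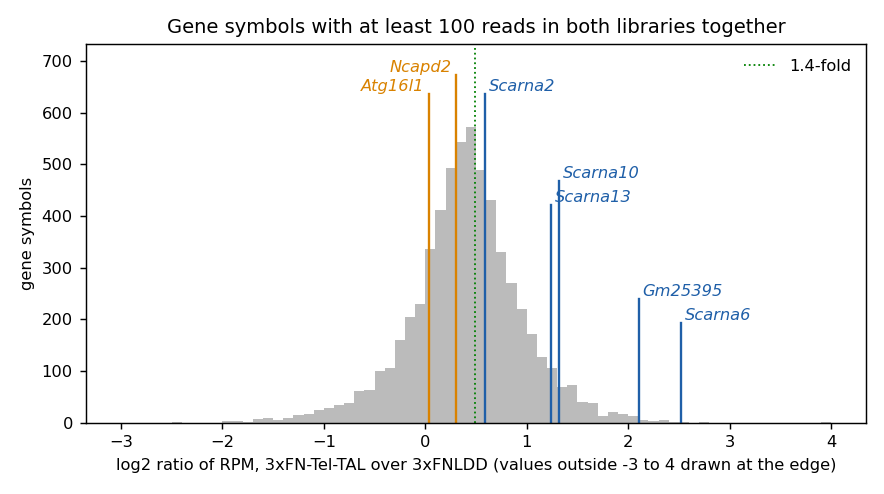
Histogram of the log2 ratio of RPM, 3xFN-Tel-TAL over 3xFNLDD, for the 5933 gene symbols with 100 reads or more, with the scaRNAs (blue lines) and host genes (orange lines) marked and 1.4-fold as a dotted line. Scarna6 (2.52) and Gm25395 (2.10) lie in the right tail, Scarna2 (0.59) lies in the main body, and Atg16l1 (0.03) and Ncapd2 (0.30) lie left of the median of 0.41.

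With scaling to library totals, neither host gene differed in RPM between the libraries beyond counting error. Atg16l1 had 372 reads (51.6 RPM) in the control and 516 (52.8 RPM) in Tel-TAL, with a log2 ratio of 0.03 (-0.16 to 0.23), higher than only 20.5% of gene symbols. Ncapd2 had 128 reads (17.8 RPM) and 214 reads (21.9 RPM), a log2 ratio of 0.30 (-0.02 to 0.63), higher than 40.0% of gene symbols. Both intervals hold 0, but the upper bound of Ncapd2 lies above 1.4-fold, a log2 ratio of 0.49. The difference between the 2 hosts was -0.27 (-0.65 to 0.11). TMM scaling gave -0.29 and -0.03, so the sign of each host's ratio depends on the scaling. The TMM shift of 0.33 exceeds the upper bound of Atg16l1 (0.23), so with TMM its interval lies wholly below 0. That of Ncapd2 still holds 0. Neither host was above 1.4-fold with either scaling.

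The reads of Atg16l1 were spread unevenly over its 7 listed transcripts. ENSMUST00000127884, a transcript with a retained intron that spans the intron of Scarna6 but holds none of its bases in an exon, had 288 and 370 reads, which was 77.4% of the Atg16l1 reads in the control (exact 95% interval 72.8% to 81.6%) and 71.7% in Tel-TAL (67.6% to 75.6%). Its log2 ratio was -0.08 (-0.30 to 0.15). The protein-coding transcript ENSMUST00000027512 had 48 and 76 reads, a log2 ratio of 0.22 (-0.32 to 0.78), and a second retained-intron transcript, ENSMUST00000133072, had 32 and 57 reads, a log2 ratio of 0.39 (-0.26 to 1.07). ENSMUST00000129431 (2 and 8 reads), ENSMUST00000113186 (2 and 1 reads), ENSMUST00000144047 (0 and 3 reads) and ENSMUST00000139628 (0 and 1 reads) had 8 reads or fewer in each library. The differences between ENSMUST00000127884 and the next 2 transcripts, -0.30 (-0.90 to 0.29) and -0.47 (-1.18 to 0.22), hold 0 in their intervals. Ncapd2 had 1 listed transcript, ENSMUST00000043848, with 32 exons.

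**Figure D4:**
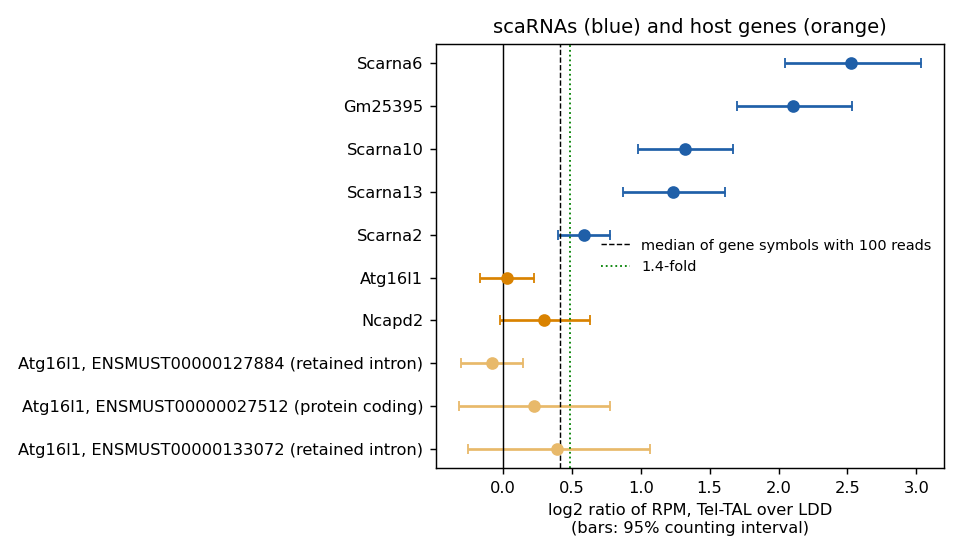
Log2 ratio of RPM, 3xFN-Tel-TAL over 3xFNLDD, of the scaRNAs (blue), the host genes (orange) and the Atg16l1 transcripts with 20 reads or more (light orange), with 95% counting intervals as bars. The intervals of Scarna6, Gm25395, Scarna10 and Scarna13 lie to the right of the 1.4-fold line, and those of Atg16l1 and of ENSMUST00000127884 lie to its left and hold 0.

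Scarna6, Gm25395 and Scarna10, the members whose host was listed, each had a higher ratio than the host. The interval of the difference excluded 0 in all 3 pairs. Among 47 other snoRNAs, described below, the interval was wholly above 0 for 13 (27.7%), and for 7 of the 12 with at least 100 reads. Scarna6 and Scarna10 had been selected by their ratio in these same libraries, and Gm25395 was chosen as a member with earlier results of these data known. The hosts were taken by position. The differences are therefore not independent evidence of the direction. The difference of the log2 ratios does not depend on how the libraries are scaled, since both RNAs are measured in the same 2 libraries. It was 2.49 (95% interval 1.97 to 3.04) between Scarna6 and Atg16l1, that is 5.62-fold (3.91 to 8.23). It was 2.07 (1.62 to 2.54) between Gm25395 and Atg16l1, that is 4.20-fold. It was 1.02 (0.54 to 1.50) between Scarna10 and Ncapd2, that is 2.03-fold (1.46 to 2.82). In terms of reads, there were 10.8 Scarna6 reads per 100 Atg16l1 reads in the control and 60.5 in Tel-TAL. The corresponding values were 15.6 and 65.5 for Gm25395, and 72.7 and 147.2 Scarna10 reads per 100 Ncapd2 reads. Scarna6 and Gm25395 share 1 host, so their differences from it are not independent, and summed they differed from Atg16l1 by 2.26 (1.89 to 2.63).

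The size of the difference changed little with the Atg16l1 transcripts that were counted. For Scarna6 it was 2.60 (2.07 to 3.16) against ENSMUST00000127884 alone, 2.29 (1.55 to 3.02) against the 3 protein-coding transcripts and 2.17 (1.53 to 2.82) against all transcripts but ENSMUST00000127884. For Gm25395 the same 3 values were 2.18, 1.86 and 1.75, and every interval excluded 0. Per kilobase, Scarna6 had 20.9 and 120.4 RPM and Gm25395 had 29.6 and 127.1 RPM, against 2.13 and 2.48 RPM for ENSMUST00000027512. Scarna10 had 39.7 and 99.2 RPM per kilobase, against 3.93 and 4.84 for Ncapd2. The Atg16l1 transcript with most reads, ENSMUST00000127884, had 11.8 and 11.1 RPM per kilobase, so the excess of Scarna6 and Gm25395 over it was much smaller in the control than over the protein-coding transcript.

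A positive difference from the host was also frequent among other snoRNAs. A set of 47 snoRNAs not annotated as scaRNAs was used, each with at least 20 reads and within a listed gene with at least 20 reads on the same strand, in 37 host genes. In this set 35 had a difference above 0 and 13 (27.7%) had an interval wholly above 0, whereas 1 had an interval wholly below 0. Their median difference was 0.45 (quartiles -0.01 and 1.02), with median log2 ratios of 0.91 for the snoRNAs and 0.37 for the hosts. Of the 47, 16 overlapped an exon of a listed host transcript, and for the 31 that did not, the median difference was 0.36 and 8 had an interval wholly above 0. The snoRNAs had a median of 43 reads, fewer than any of the 5 scaRNAs, so their intervals are wider. Among the 12 with at least 100 reads, 7 had an interval wholly above 0, the median difference was 0.86 and the highest was 2.05 (1.67 to 2.43), of Snord17 in Snx5. The differences of Scarna6 (2.49) and Gm25395 (2.07) were above that value, but both intervals overlapped that of Snord17, and the difference of Scarna10 (1.02) was at the upper quartile of the 47. Of the 47, 2 exceeded the difference of Scarna6, each on 2 reads in the control library. The 47 were taken by position and reads and not by ratio, unlike Scarna6 and Scarna10, and Gm25395 was chosen with earlier results known.

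The other RNAs annotated as scaRNAs did not all exceed their hosts, and 3 of them had at least 20 reads and a listed host. Gm22442, annotated as SCARNA21, had 76 and 135 reads and differed from Chd3, a chromatin remodeler gene, by -0.06 (-0.56 to 0.44). Gm22767, annotated as SCARNA1, had 3 and 24 reads and differed from Ppp1r8 by 2.16 (0.27 to 4.62). Gm25492, annotated as SCARNA20, had 6 and 28 reads and differed from Wbscr22 by 1.37 (-0.18 to 3.11). The interval thus excluded 0 for 1 of these 3, and for the deepest of them, Gm22442, the value was close to 0.

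**Figure D5:**
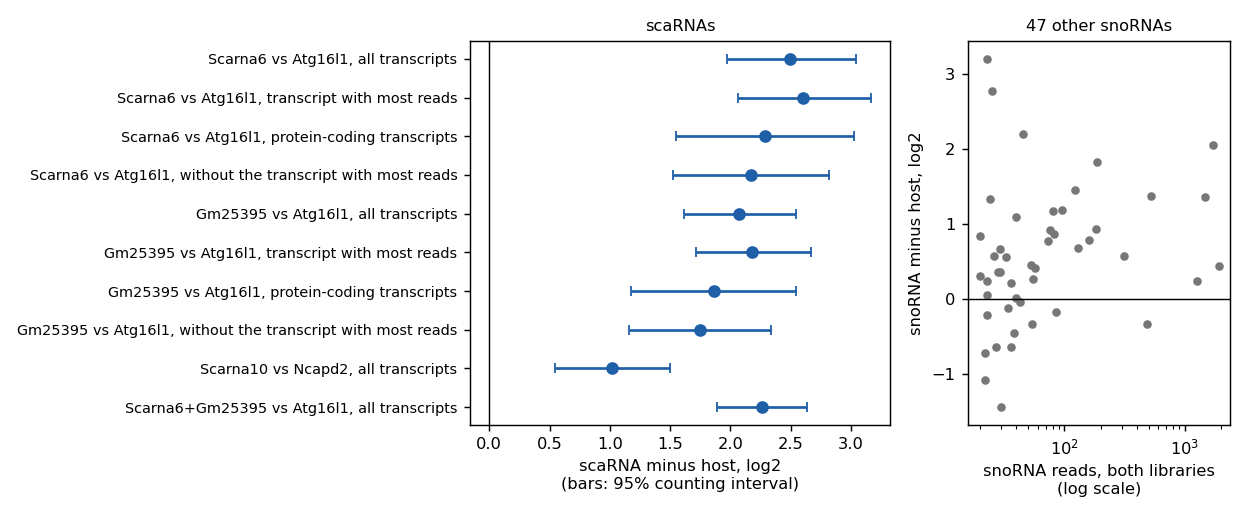
Left, the log2 ratio of the scaRNA minus that of its host, with exact 95% counting intervals as bars, by the host transcripts counted. Right, the same difference for 47 snoRNAs not annotated as scaRNAs (gray points) against their reads in both libraries together on a log scale; the scaRNA differences run from 1.02 to 2.60 and the median of the 47 is 0.45.

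Scarna13 and Scarna2 had no listed host, and were set beside the nearest listed gene, a comparison that was chosen after the values were seen. For Scarna13 this was Glrx5, a mitochondrial protein gene for iron-sulfur cluster assembly, which lies 1339 nt away on the opposite strand and had 17 and 29 reads, a log2 ratio of 0.33 (-0.58 to 1.29). Scarna13 minus Glrx5 was 0.91 (-0.13 to 1.90). For Scarna2 it was Tmem167b, 1673 nt away on the same strand, with 13 and 13 reads and a log2 ratio of -0.44 (-1.67 to 0.79), and Scarna2 minus Tmem167b was 1.03 (-0.22 to 2.27). Both intervals hold 0, and at this depth a difference was not detectable.

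Among the scaRNAs themselves, the interval of the difference excluded 0 for 8 of 10 pairs. In descending order of log2 ratio, Scarna6 and Gm25395 did not differ beyond counting error (0.42, -0.23 to 1.08), nor did Scarna10 and Scarna13 (0.08, -0.43 to 0.59). Gm25395 exceeded Scarna10 by 0.78 (0.24 to 1.33), and Scarna13 exceeded Scarna2 by 0.65 (0.24 to 1.07). The pair from Atg16l1 introns was thus highest, Scarna10 and Scarna13 were intermediate and Scarna2 was lowest. The makeup of the scaRNA reads shifted accordingly. Scarna2 held 56.5% of the reads of the 5 in the control (exact 95% interval 52.5% to 60.4%) and 37.1% in Tel-TAL (35.0% to 39.3%), while Scarna6 and Gm25395 together rose from 15.6% (12.9% to 18.7%) to 33.3% (31.2% to 35.5%). Summed, the 5 scaRNAs had 628 and 1951 reads, a log2 ratio of 1.20 (1.07 to 1.33).

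The wider family, taken by symbol or annotation, held 25 rows, of which the 5 scaRNAs had 87.0% of the reads. Of the 20 other rows only 4 had at least 20 reads. Gm22442 had a log2 ratio of 0.39 (-0.03 to 0.81), close to the median of all symbols and below 1.4-fold. Gm25492, Gm22767 and Gm23119 (annotated as SCARNA17, 7 and 20 reads) had log2 ratios of 1.78 (0.48 to 3.35), 2.56 (0.84 to 4.94) and 1.07 (-0.23 to 2.56). Summed, the 20 rows had 119 and 265 reads, a log2 ratio of 0.72 (0.40 to 1.04). Gm22442 carried most of this sum, and without it the other 19 rows had 43 and 130 reads, a log2 ratio of 1.16 (0.65 to 1.69). The median over the 4 rows with at least 20 reads was 1.43, of which 3 were above 1.4-fold, beside 1.32 for the 5 scaRNAs. The remaining Scarna symbols were too shallow to place: Scarna9 had 8 and 8 reads and Scarna17 had 1 and 7 reads (2.37, -0.59 to 7.86). Scarna8 had 0 and 8 reads, for which the lower 95% bound of the log2 ratio was 0.33, and for Scarna3a (0 and 6 reads) that bound was -0.20, so 0 is not excluded. Scarna3b (0 and 2 reads) allows no ratio. Scarna13 has a second annotated row, Gm26489, with 2 and 0 reads.

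The proteins that bind scaRNAs were listed among the messenger RNAs of the same libraries, and these lists had medians at or below that of all symbols. Over the 12517 symbols with at least 20 reads, 5148 (41.1%) were above 1.4-fold and 1435 were below its inverse, with a median log2 ratio of 0.37. Of 6 H/ACA protein genes, 2 were above 1.4-fold and none below its inverse, with a median of 0.14. Dkc1, which encodes the pseudouridine synthase dyskerin, had 102 and 196 reads (0.50), Naf1, an assembly factor, had 64 and 94 reads (0.11) and Nhp2, a core protein, had 31 and 46 reads (0.13). Of the 13 genes of Cajal body and SMN complex proteins with at least 20 reads, 5 were above 1.4-fold and 1 below its inverse, with a median of 0.37. Nolc1, which encodes a chaperone of snoRNAs and scaRNAs, had 86 and 206 reads (0.82), Gemin5, the snRNA-binding subunit of the SMN complex, had 93 and 104 reads (-0.28) and Sart3, a factor of snRNP recycling, had 52 and 77 reads (0.13). Wrap53, named here after its values were seen, had 16 and 28 reads, a log2 ratio of 0.37. Of 4 C/D protein genes, 1 was above 1.4-fold and none below its inverse, with a median of 0.20, and the 3 with most reads were Nop56 (220 and 364 reads, 0.29), Nhp2l1 (62 and 65 reads, -0.37) and Nop58 (33 and 88 reads, 0.98).

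The condensin and autophagy genes had medians close to that of all symbols. Of 8 condensin genes, 3 were above 1.4-fold and none below its inverse, with a median log2 ratio of 0.38, and besides Ncapd2 the genes with most reads were Smc4, an ATPase subunit (102 and 127 reads, -0.12), and Ncaph2, a condensin II subunit (67 and 129 reads, 0.51). Of the 15 autophagy conjugation genes with at least 20 reads, 5 were above 1.4-fold and 2 below its inverse, with a median of 0.37. Besides Atg16l1 these were led by Wipi2, which recruits the ATG16L1 complex to membranes (124 and 254 reads, 0.59), and Map1lc3b, an LC3 protein (86 and 174 reads, 0.58). Among 6 long non-coding host genes of snoRNAs with at least 20 reads, 4 were above 1.4-fold and none below its inverse, with a median of 0.70, higher than that of all symbols, and the 3 with most reads were Snhg11 (288 and 363 reads, -0.11), Gas5 (114 and 278 reads, 0.85) and Snhg5 (43 and 135 reads, 1.21). Spliceosomal snRNAs are the class of RNA that scaRNAs modify, and 4 symbols were on the list: Rnu12, Rnu1b2, Rnu11 and Rnu5g. U2 snRNA, the target of Scarna2, was not on it, so the class as a whole was not measured. The median of the 4 was -0.09, and none was below the inverse of 1.4. Rnu12 had 69 and 84 reads (-0.16), Rnu1b2 had 18 and 24 reads (-0.02) and Rnu11 had 5 and 20 reads (1.56). Rnu11 was the 1 of the 4 above 1.4-fold, on few reads.

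The gene symbols whose log2 ratio was nearest to each scaRNA, among 3058 symbols with at least 200 reads, were of mixed kinds. For Scarna6 these were the C/D snoRNA Snord17 (215 and 1512 reads, 2.37) and Zwint, a kinetochore protein gene (36 and 246 reads, 2.33). For Gm25395 they were Eif4h, a translation initiation factor gene (148 and 859 reads, 2.10), and the U3 snoRNA Rnu3b3 (12369 and 71578 reads, 2.09). For Scarna10 they were the kinase gene Hipk2 (188 and 638 reads, 1.32) and Sec14l1 (61 and 206 reads, 1.32), and for Scarna13 they were Slc43a1, an amino acid transporter gene (75 and 240 reads, 1.24), and BC005537 (162 and 516 reads, 1.23). For Scarna2, in the dense middle of the distribution, they were Srrt (77 and 157 reads, 0.59) and Gm22182 (124 and 253 reads, 0.59). Likeness was measured on 1 ratio of 2 libraries and says nothing beyond it.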

How the data were processed

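RNA from the enChIP of 3xFNLDD and of 3xFN-Tel-TAL was sequenced in 1 library each. The authors deposited raw read counts by Ensembl transcript ID, and RPM, the counts scaled to the counted reads of the library. The submitters' processing notes name cutadapt and the builds GRCm38 and mm10. The aligner and the treatment of reads that match several places are not given in the sources used here. The TruSeq RNA v2 kit does not mark strand, and its standard protocol selects poly(A) RNA, which scaRNAs as a rule are not.

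Counts were summed over the transcripts of a symbol. Log2 ratios are of RPM, with exact 95% Clopper-Pearson intervals, and scaRNA minus host differences are log2 odds ratios with exact conditional intervals (Python 3.11.15, scipy 1.17.1, pandas 2.3.3). The call was a ratio above 1.4, the study's threshold. The study's ratio is one of read counts, whereas RPM was used here because the totals differ. No p-value is given. The scripts were tested on simulated data. TMM factors came from edgeR 4.0.16 over gene symbols. The files hold no coordinates, so positions and sequences were taken by transcript ID from GENCODE M1 on NCBIM37, which holds 45887 of the 48876 transcripts. Copies were sought with BLAST 2.17.0+, and alignments were made with Biopython 1.88. Synonyms came from RefSeq.

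The members and gene lists were chosen with earlier results of these data known. Named were all members with their transcripts, every other Scarna symbol, the 3 genes with most reads of each of 10 lists, and the 2 symbols of at least 200 reads nearest to each scaRNA in log2 ratio. Of the marker lists, these 3 were Csf2rb, Csf2rb2 (751 and 849 reads) and Laptm5 (192 and 791 reads), and Pecam1 (39 and 67 reads), Col1a1 (14 and 5 reads) and Rbfox3 (7 and 7 reads). Alternatives were other scalings, a pseudocount of 1, other read minimums and other sets of host transcripts.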

Additional observations from a re-analysis of the deposited data

How the results depend on the processing

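No paired analysis was possible because each condition had 1 library, and for the same reason no library could be left out in turn. The differences between scaRNA and host kept their sign under each setting tried, and their intervals excluded 0 for each set of host transcripts (no interval was computed with the pseudocount). They ran from 2.17 to 2.60 for Scarna6, from 1.75 to 2.26 for Gm25395 (the latter with Scarna6 added) and from 1.01 to 1.02 for Scarna10. Leaving out host transcripts with an exon over a scaRNA changed nothing, since there were none. With TMM scaling or with totals that leave out the 11 transcripts above 1% of a library, Scarna2 had a log2 ratio of 0.26 or 0.27, below 1.4-fold, and Atg16l1 had -0.29 or -0.28, while Ncapd2 had -0.025 with TMM. Counting only protein-coding transcripts gave 0.24 for Atg16l1. The log2 ratios of Scarna6, Gm25395, Scarna10 and Scarna13 stayed above 1.4-fold throughout. Gene symbols above 1.4-fold numbered 1164 with TMM and 1198 with the reduced totals, against 2539, and those below its inverse numbered 770 and 750, against 346. With minimums of 20, 50 and 200 reads, those below numbered 1435, 680 and 180, and with 20 and 200 reads those above numbered 5148 and 1275. The number of symbols counted changes with the minimum as well, so these counts are not shares. With 20 reads, 41.1% of 12517 symbols were above 1.4-fold, and with 100 reads 42.8% of 5933 were above it and 5.83% below its inverse. With TMM the medians of the H/ACA and C/D protein genes were -0.19 and -0.13, and that of the spliceosomal snRNAs was -0.41. Those of the Cajal body, condensin and autophagy lists were 0.04, 0.05 and 0.05, and that of the snoRNA host genes was 0.38. TMM lowers every log2 ratio by the same 0.33, the median of all symbols (0.37 before the shift) included, so the order of the lists does not change.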
